A study of Homo sapiens with 2 samples.

Results

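The collagen genes were examined in hTERT-RPE1, an immortal human cell line derived from the retinal pigment epithelium and able to grow primary cilia, with 2 Affymetrix arrays. Members were all genes whose symbol in the probe annotation has the form COL, a type number, A and a chain number, taken from probe sets that carry no other symbol. They numbered 43 of 19775 genes, of 27 collagen types, and were read by 112 of the 54613 probe sets. The array labelled control came from cells transfected with a control oligo, and the array labelled miR-129-3p from cells transfected with a miR-129-3p oligo to overexpress that microRNA. Both cultures were grown in DMEM/F-12 with 10% fetal bovine serum and 0.01 mg/ml hygromycin B, received their oligo with the lipid reagent RNAiMAX, and gave total RNA at 72 h, of which 100 ng was labelled. The oligo doses and sequences are not given in the sources used here. The series title concerns control of cilium assembly by miR-129-3p through CP110 and actin. The comparison below asks how the collagen genes read with miR-129-3p against control.

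Each group had 1 array, so no value has a replicate error and nothing was tested: a difference is between these 2 arrays, not between the conditions, and culture, array and oligo cannot be told apart. Their number limits the precision. Signals are the deposited linear intensities, differences subtract control from miR-129-3p as log2(signal + 16), and a fold is taken from that difference unless a ratio of signals is named. For each gene the probe set brightest on average over both arrays, on that scale, stands for the gene, which is called measured at a signal of 100 or more on either array. The arrays had median signals of 96.5 (control) and 98.0 (miR-129-3p), and over the 12754 measured genes the median difference was 0.03. The differences of probe sets of the same gene had a pooled SD of 0.37 over 6177 measured genes with several probe sets at 100 or more, and of 0.81 over the 16 such collagen genes. That spread lies within the arrays and leaves out the spread between cultures. In bulk RNA, fewer cells of a kind and less RNA per cell cannot be told apart.

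The line was checked against fixed marker lists. Of 13 retinal pigment epithelium markers with a probe set, 5 were measured, among them the transcription factors MITF (control 2470, miR-129-3p 1020) and OTX2 (1452 and 1625), and PMEL, a melanosome protein, differed by 0.92. The other measured members were RDH5 (169 and 197) and TTR (91.0 and 110). RPE65, RLBP1, TYR, BEST1 and LRAT, genes of the mature pigment epithelium, were under 100 on both arrays. Of 10 fibroblast and mesenchymal markers 9 were measured, and the signals of all 10 summed to 46143 on the control array and 29277 on the other. Within that list ACTA2, smooth muscle actin, differed by -2.33 and FAP, a fibroblast surface protease, by -1.78, while PDGFRA differed by 0.74 and S100A4 by 0.77. The 10 epithelial markers summed to 16642 and 11874, with KRT7 at -1.93, KRT18 at -0.96 and OCLN at 0.91. These sums were lower with miR-129-3p, as were many collagens, and their part in the collagen differences was not tested. The sums follow bright members such as KRT8 (6138 and 4918), KRT18 (5787 and 2972) and ACTA2 (11066 and 2187). CDH1 was near the filter (103 and 89.7), and EPCAM and KRT19 were under 100 on both arrays. Only 2 of 5 endothelial markers, 1 of 5 chondrocyte markers (SOX9) and 1 of 4 blood cell markers (HBB, 162 and 149) were measured.

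Collagens are secreted proteins in which 3 chains wind into a helix of repeated glycine-X-Y units. Fibrillar collagens assemble into banded fibrils, type IV collagen forms the network of basement membranes, and the remaining types coat fibrils, form filaments or sit in the cell membrane. Retinal pigment epithelium lies on Bruch's membrane, a sheet that holds both type IV networks and fibrillar collagen. The 6 type IV chains form trimers of set composition, made of the chains α1 and α2, of α3, α4 and α5, or of α5 and α6. Their genes lie in head-to-head pairs, each pair read outward from a common stretch of DNA.

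The transfected microRNA and the DNA between the paired genes are shown first, because the largest lower differences among the collagens lay in these pairs. Human cells hold 2 mature forms of miR-129-3p, from separate genes. Which form the oligo copied is not given in the sources used here. With the seed, bases 2 to 8, in capitals, the RefSeq sequences (GRCh38.p14) are, for chr7:128207920-128207941 and chr11:43581450-43581471, both on the plus strand:
hsa-miR-129-1-3p: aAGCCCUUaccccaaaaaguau
hsa-miR-129-2-3p: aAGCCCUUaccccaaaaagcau
Both share the seed and differ by the single substitution U20C, counted from the 5′ end with the first form as the reference.

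The windows of the RefSeq promoter table run from 250 bases before to 50 after each gene's start. Those of COL4A1 and COL4A2, of COL4A4 and COL4A3, and of COL4A6 and COL4A5 overlap. The overlap between the start sites of each pair is printed on the plus strand (GRCh38.p14), with CCAAT boxes (CCAAT) and GC boxes (GGGCGG), on either strand, in capitals, at chr13:110307158-110307283, chr2:227164374-227164455 and chrX:108439588-108439708:
COL4A1-COL4A2: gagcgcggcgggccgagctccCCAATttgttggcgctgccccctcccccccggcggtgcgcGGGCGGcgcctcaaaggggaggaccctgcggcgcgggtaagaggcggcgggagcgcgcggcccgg
COL4A4-COL4A3: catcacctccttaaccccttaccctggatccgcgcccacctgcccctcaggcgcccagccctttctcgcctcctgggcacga
COL4A6-COL4A5: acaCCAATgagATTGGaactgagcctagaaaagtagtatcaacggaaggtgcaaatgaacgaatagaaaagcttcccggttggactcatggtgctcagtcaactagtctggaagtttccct
In the table, 126 bases separate the start sites of COL4A1 and COL4A2, 418 those of COL4A4 and COL4A3, and 379 those of COL4A6 and COL4A5. The COL4A1-COL4A2 stretch holds 1 CCAAT box and 1 GC box, the COL4A6-COL4A5 stretch 2 CCAAT boxes, and the COL4A4-COL4A3 stretch neither motif. The COL4A4-COL4A3 stretch covers only 82 of the 418 bases between the start sites. COL4A3 and COL4A6 do hold a GC box in a window, outside the printed stretches. Of 35116 promoter windows of 300 bases, 34.6% hold a CCAAT box and 45.0% a GC box. Among the 18 measured collagens with a window, 6 hold a CCAAT box (33.3%), namely these 4 type IV genes of the first and last pairs with COL11A1 and COL11A2, and 14 a GC box (77.8%). The TATA box (TATAAA, either strand) is in 11.5% of all windows and in those of 4 of the 18 collagens, COL6A2, COL7A1, COL13A1 and COL18A1. A collagen counts once if any of its windows holds the motif, whereas the shares over all windows count each window. The 2 kinds of share are therefore not like for like. A match is a description of the letters only.

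Of the 43 collagen genes, 23 were measured. In that set 9 had a signal lower by 1.5-fold or more (39.1%), against 10.8% of all measured genes, 5 a signal higher by as much (21.7%), against 17.3%, and 9 lay within 1.5-fold. At 2-fold, 5 were lower, against 4.56% of all measured genes, and 4 higher, against 7.83%. Their median difference was -0.34, and single members ran from -3.65 (COL4A4) to 3.58 (COL21A1). The filter shaped these counts: 3 collagens, COL3A1, COL4A6 and COL21A1, reached 100 only with miR-129-3p, and COL8A2 and COL11A2 only in control. Among the 18 collagens at 100 or more on both arrays, 8 were at least 1.5-fold lower and 2 higher, against 10.4% and 15.7% of the 11539 such genes. Over all 43 collagens with no filter the median was -0.16.

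**Figure D1:**
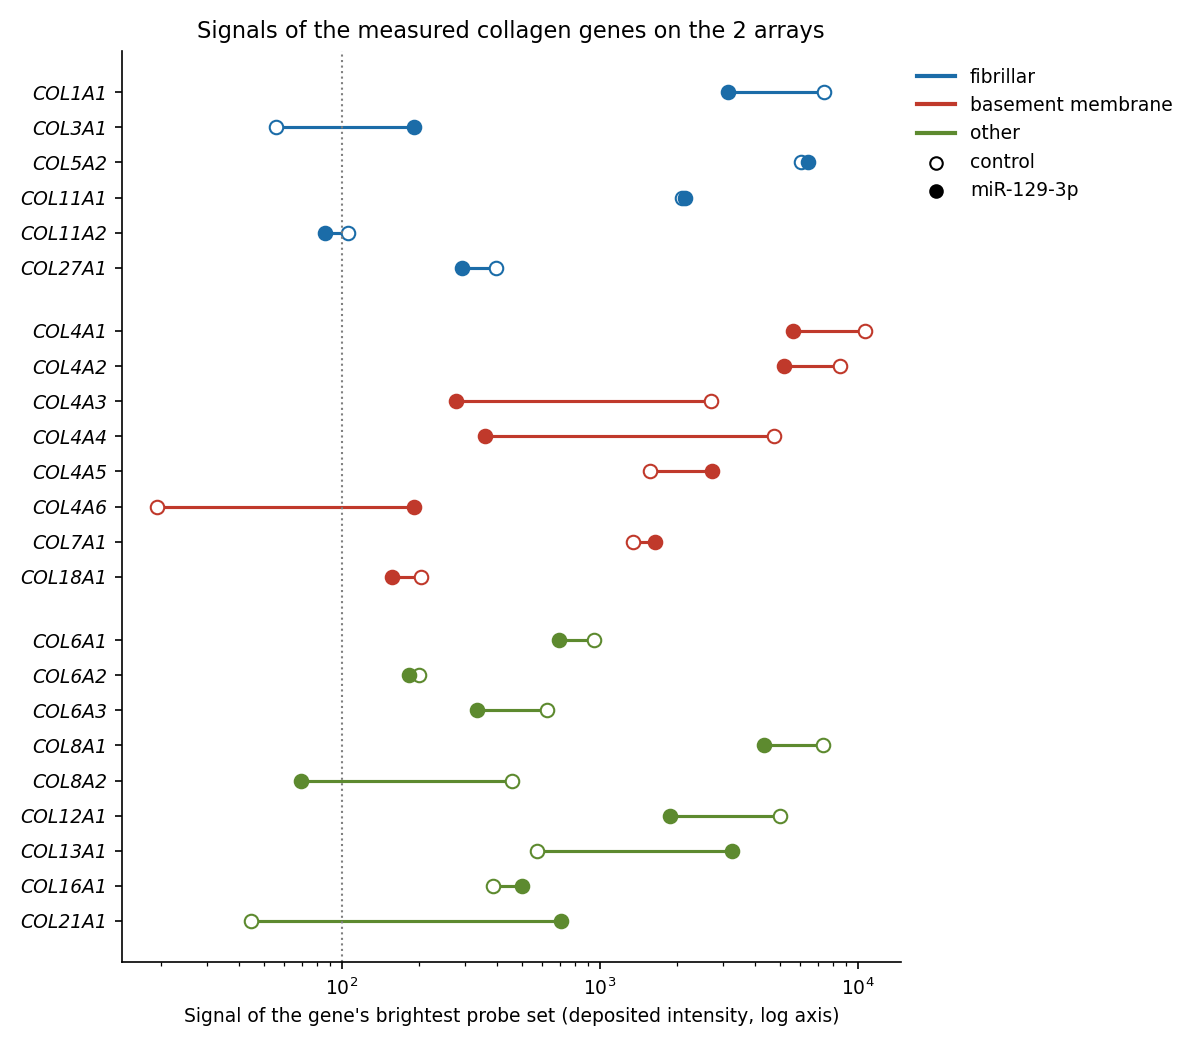
Signal of the brightest probe set of each measured collagen gene on the control array (open) and the miR-129-3p array (filled), on a log axis, by class; the dotted line marks the filter of 100. COL4A3 and COL4A4 span the widest gaps towards lower signals, from 2710 to 277 and from 4732 to 361, and COL21A1 the widest towards higher signals, from 44.7 to 709.

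The basement membrane collagens held the largest lower differences, with a median of -0.53 over the 8 measured of 9. Past 1.5-fold, 4 were lower and 2 higher, against 10.8% and 17.3% of all measured genes, and 2 lay between. All 6 type IV chains were measured and each differed by at least 1.5-fold, with a median of -0.82. Of these, 4 were lower and 2 higher, against 10.8% and 17.3% of all measured genes. The chains differed by pair: on the probe sets used, α1 and α2 were lower by less than 2-fold, α3 and α4 were lower by 9.32-fold and 12.6-fold, and α5 and α6 were higher.

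COL4A1, which encodes the α1 chain found in nearly all basement membranes, had a signal of 10699 on the control array against 5625 (-0.93, or 1.90-fold lower). Its other probe set read 4374 and 1335 (-1.70). COL4A2, the α2 chain of the same trimer, read 8567 and 5189 on the brighter probe set (-0.72) and 1605 and 813 on the other (-0.97). All 4 probe sets of this pair were therefore lower by at least 1.5-fold. Both differences were larger than the pooled SD of 0.37 over all genes, and that of COL4A2 was smaller than the 0.81 over collagen genes.

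COL4A3 encodes the α3 chain, known from the basement membranes of the kidney filter, the lung, the inner ear and the eye. Its signal was 2710 on the control array against 277, a difference of -3.22. Its other probe sets at 100 or more in control read 552, 321 and 119 there, against 63.1, 58.8 and 19.7, with differences of -2.84, -2.17 and -1.92. The 3 remaining COL4A3 probe sets were under 100 on both arrays and differed by -0.63 to -0.17. COL4A4, the α4 chain, read 4732 and 361, a difference of -3.65, and its next brightest probe set read 3827 and 289, also -3.65. The dimmest COL4A4 probe set read 128.5 and 103 (-0.28) and so differed from the other pair of probe sets. With the mean of all probe sets, dim ones included, the differences were -1.63 for COL4A3 and -2.53 for COL4A4. Among all measured genes, 0.102% had a difference as low as that of COL4A4 and 0.172% as low as that of COL4A3.

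COL4A5, whose α5 chain joins trimers with α3 and α4 or with α6, was on the opposite side. Its signals were 1572 (control) and 2717 (miR-129-3p), a difference of 0.78 (1.72-fold higher), from the single COL4A5 probe set above 100; its other probe set read 32.3 and 38.9. The call is lost with the mean of both probe sets, at 0.48. COL4A6, the α6 chain, read 19.3 and 191, a difference of 2.55, while its other probe sets went from 49.7 to 60.4 and from 34.6 to 43.1. With every signal under 100 set to 100 the COL4A6 difference was 0.84. The higher COL4A6 value thus rested on 1 of 3 probe sets and on a dim control signal.

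**Figure D2:**
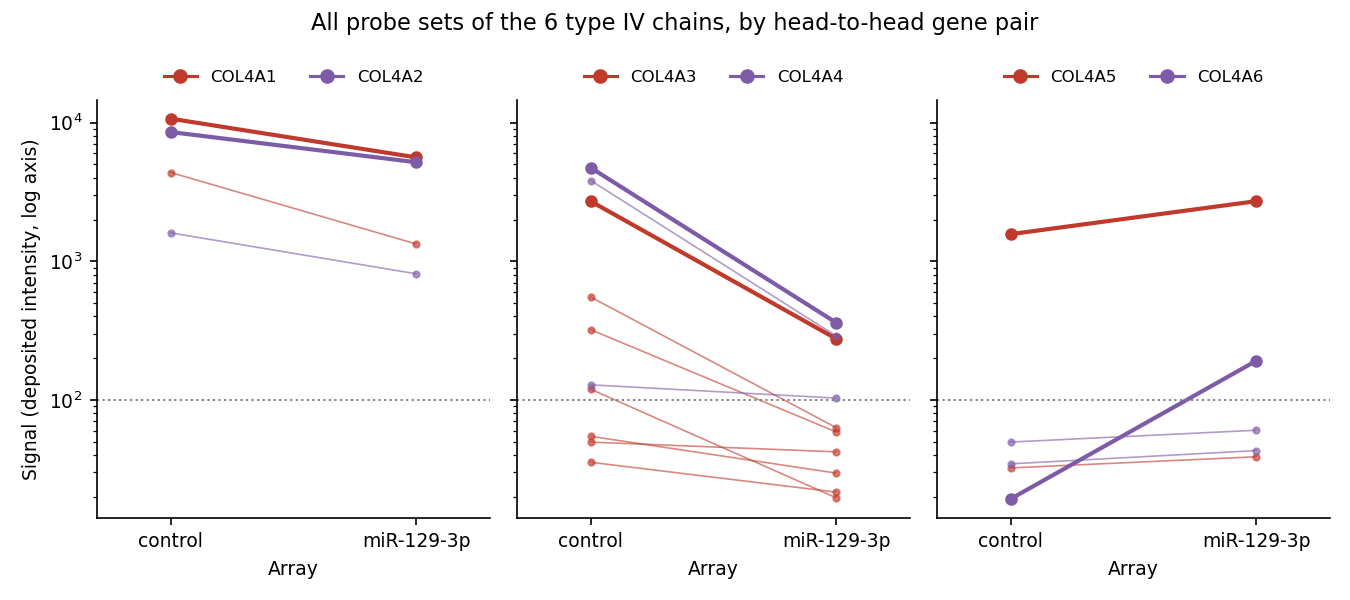
Signal of every probe set of the 6 type IV collagen genes on the control and the miR-129-3p array, on a log axis, with 1 panel for each head-to-head gene pair; thick lines are the probe sets that represent the gene, thin lines the others, and the dotted line the filter of 100. Lines slope down in the COL4A1 and COL4A2 panel, steeply down for the brighter probe sets of COL4A3 and COL4A4, and up in the COL4A5 and COL4A6 panel.

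In each of the 3 type IV pairs both genes differed by at least 1.5-fold in the same direction. Of the 625 head-to-head pairs of protein-coding genes in the promoter table with both genes measured, a set that includes these 3, 5.6% did so (35 pairs), and 55.8% had differences of the same sign. The COL4A5 and COL4A6 pair enters with less support, as COL4A6 reached 100 only with miR-129-3p and the COL4A5 call is lost with the mean of its probe sets. Other measured collagen genes that are direct neighbours on a chromosome did not both pass 1.5-fold. COL3A1 and COL5A2 stood at 1.54 and 0.09, and COL6A1 and COL6A2 at -0.45 and -0.12. The other neighbours, COL6A5 with COL6A6 and COL9A1 with COL19A1, were under 100 on both arrays.

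The other collagens of the basement membrane zone differed less. COL7A1, whose product forms the anchoring fibrils under epithelia, read 1350 and 1644 (0.28) and, on its other probe set, 327 and 375 (0.19). COL18A1, the precursor of endostatin, read 204 and 157 (-0.34), but its other probe set read 192 and 101 (-0.83). COL15A1, its nearest relative in structure, was under 100 on both arrays, at 23.1 and 19.5.

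The fibrillar collagens split by gene, with a median of -0.10 over the 6 measured of 11. Past 1.5-fold, 1 was lower and 1 higher, against 10.8% and 17.3% of all measured genes, and 4 lay between. COL1A1, the α1 chain of type I collagen, had a control signal of 7404 and a miR-129-3p signal of 3143, a difference of -1.23 (2.35-fold lower). Its other probe sets were all lower but by unlike amounts: 3289 and 687 (-2.23), 682 and 53.1 (-3.34), 244 and 198 (-0.28), and 155 and 126 (-0.27). The direction was shared by all 5 COL1A1 probe sets, and the size was not. The differences of -0.28 and -0.27 lay within the pooled SD of 0.37 over all genes. All 5 carry the suffixes _s_at or _x_at, which mark probes that may match several transcripts. COL1A2, the partner chain of type I collagen, was under 100 on all 3 of its probe sets, with control signals from 23.1 to 58.2 and miR-129-3p signals from 30.3 to 50.3.

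COL3A1, the chain of type III collagen that is found beside type I in compliant tissues, went from 55.6 on the control array to 192, a difference of 1.54. Its second probe set read 38.5 and 127 (1.39), and another, under the filter, 7.41 and 42.1 (1.31). The 2 dimmest COL3A1 probe sets stayed under 20 on both arrays. With a floor of 100 under all signals the difference of COL3A1 was 0.84, so its size depends on the dim control readings.

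COL5A2, a chain of the type V collagen that nucleates fibrils, read 6044 and 6417 (0.09), and 3335 and 3242 on its other probe set (-0.04). COL11A1, a type XI chain of the same fibril-nucleating subfamily, read 2083 and 2149 (0.04), with its other probe sets at -0.03 and -0.16. These bright fibrillar genes were close to 0 on every probe set at 100 or more. COL27A1, a fibrillar chain of cartilage, read 395 and 292 (-0.42), with further probe sets at -0.18 and -0.08, and COL11A2 read 106 and 86.3 (-0.25). COL5A1 and COL5A3, the other type V chains, COL2A1 of cartilage fibrils and COL24A1 were under 100 on both arrays.

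**Figure D3:**
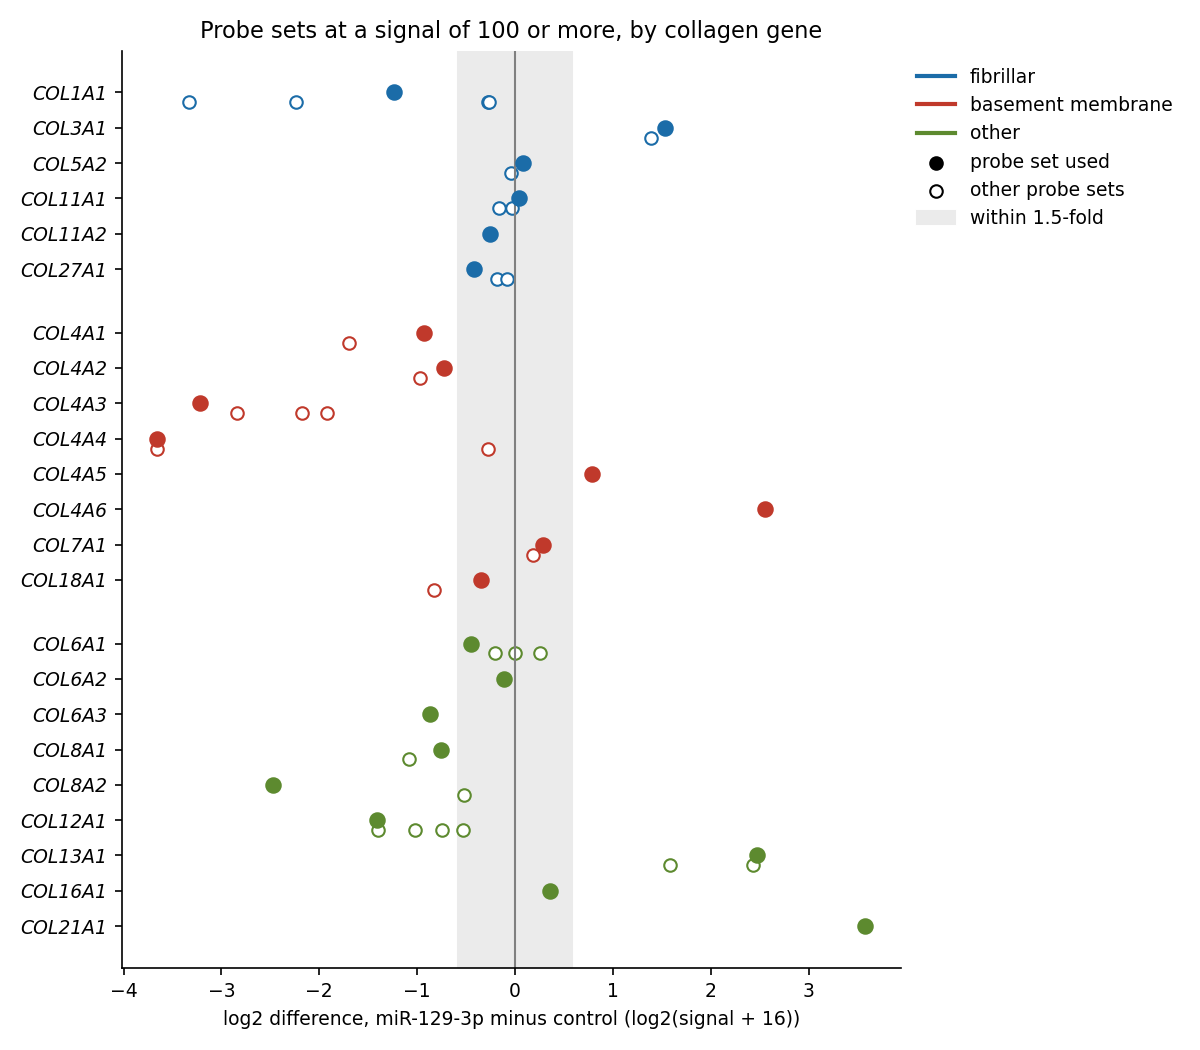
log2 difference (miR-129-3p minus control) of every probe set at a signal of 100 or more on either array for the measured collagen genes; filled points represent the gene, open points, drawn slightly lower, are its other probe sets, and the grey band is within 1.5-fold. The COL1A1 probe sets spread from -3.34 to -0.27, whereas those of COL5A2 and COL11A1 lie close to 0.

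The other collagens had a median of -0.45 over the 9 measured of 23. Past 1.5-fold, 4 were lower and 2 higher, against 10.8% and 17.3% of all measured genes. Both chains of type VIII collagen, a short-chain collagen that forms hexagonal lattices under corneal and vascular endothelium, were lower. COL8A1 read 7359 and 4353 (-0.76) and, on a second probe set, 526 and 239 (-1.09). A further COL8A1 probe set, under 100 on both arrays, read 47.1 and 49.2 (0.05). COL8A2, in which mutations cause corneal endothelial dystrophy, read 460 and 69.4 (-2.48), while its other probe set read 149 and 99.2 (-0.52), so the size for COL8A2 was not shared.

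Type VI collagen builds beaded filaments around cells from its α1, α2 and α3 chains. COL6A3 read 626 and 336 on its only probe set (-0.87, 1.82-fold lower). COL6A1 read 956 and 695 (-0.45), and its 3 other probe sets at 100 or more stood between -0.21 and 0.25. COL6A2 read 200 and 183 (-0.12). The 3 chains were on the same side of 0, but only COL6A3 was past 1.5-fold, and COL6A1 was at 0.25 when probe sets that may hybridise to several transcripts (_s_at and _x_at) were left out.

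Fibril-associated collagens with interrupted helices bind to the surface of fibrils. COL12A1, which links fibrils to their surroundings in tissues under tension, went from 5020 on the control array to 1883, a difference of -1.41 (2.65-fold lower). Its 4 other probe sets at 100 or more differed by -1.40, -1.02, -0.74 and -0.53, so all 5 were lower. COL16A1 was higher by 0.36 (386 and 499), within the pooled SD between probe sets of all genes. COL21A1, of the same family, read 44.7 and 709 on its only probe set, a difference of 3.58; with a floor of 100 it was 2.64. Among measured genes 0.596% had a difference as high as that of COL21A1.

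COL13A1, a collagen that spans the cell membrane and is found at cell-matrix adhesions and neuromuscular junctions, went from 570 on the control array to 3249, a difference of 2.48 (5.57-fold higher). Its other probe sets read 154 and 905 (2.43) and 169 and 539 (1.59). COL13A1 was the only collagen called higher with a control signal above 100 on more than 1 probe set. All 3 of its probe sets carry the suffixes _s_at or _x_at, which mark probes that may match several transcripts. The other membrane collagens with a probe set, COL23A1 and COL25A1, were under 100 on both arrays.

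The 20 collagens under 100 on both arrays read between 14.04 and 88.2 on the probe sets used. They were COL1A2, COL2A1, COL5A1, COL5A3, COL24A1, COL15A1, COL6A5, COL6A6, COL9A1, COL9A2, COL9A3, COL10A1, COL14A1, COL19A1, COL20A1, COL22A1, COL23A1, COL25A1, COL26A1 and COL28A1. Their differences ran from -0.53 (COL10A1) to 0.67 (COL9A3, 39.7 and 72.4). A signal under 100 does not show that a gene was silent, as no detection calls were at hand.

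Other probe sets of the same genes gave a view of the values not used to represent them. For the 8 collagens called lower that had other probe sets at 100 or more, all 17 of these had a negative difference, which reached 1.5-fold in 12. For the called-higher genes COL3A1 and COL13A1, 3 of 3 were at least 1.5-fold higher. The filter favoured this agreement, as some of these probe sets reached 100 only on the array where the gene was higher. Examples are COL4A3 (552 in control, 63.1 with miR-129-3p) and COL3A1 (38.5 and 127). The COL3A1 probe sets left out, under 100 on both arrays, differed by -0.05, 0.10 and 1.31. Among the called-lower genes, those left out for COL4A3 differed by -0.63 to -0.17, and that of COL8A1 by 0.05. Across the 53 collagen probe sets at 100 or more, 22 were at least 1.5-fold lower (41.5%), against 11.1% of all such probe sets with 1 gene symbol, and 8 higher (15.1%), against 16.7%. Probe sets of a gene read the same RNA and are not replicates.

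**Figure D4:**
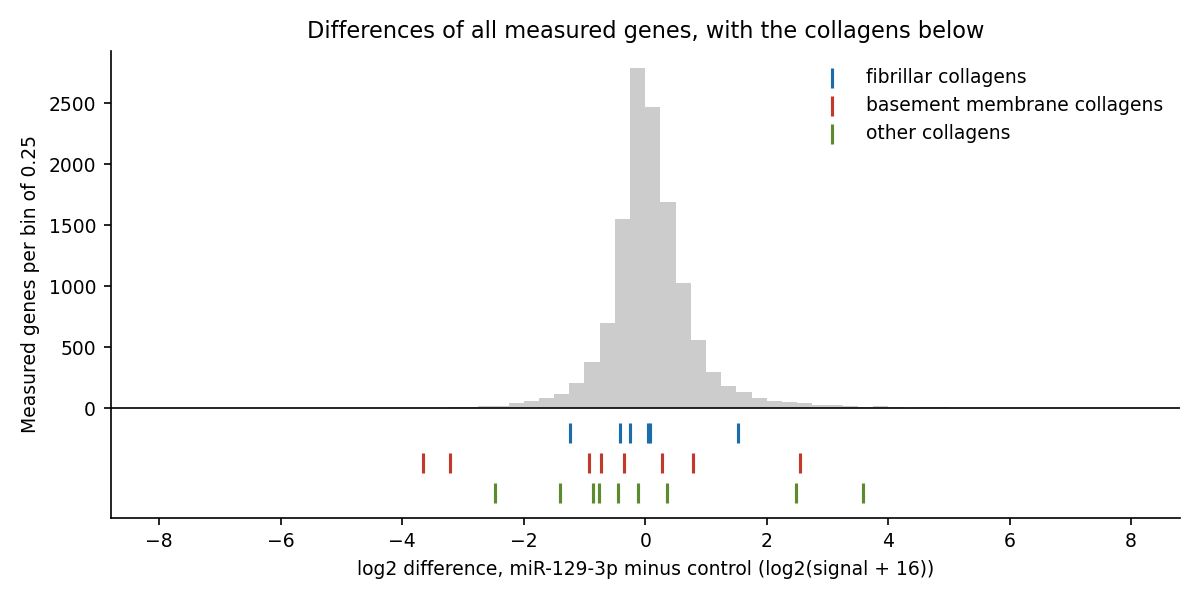
Histogram of the log2 differences (miR-129-3p minus control) of the 12754 measured genes in bins of 0.25, with the measured collagens as ticks below it by class. The fibrillar ticks run from -1.23 to 1.54, the basement membrane ticks from -3.65 to 2.55 and the ticks of the other collagens from -2.48 to 3.58.

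The genes that modify, export, join, bind and break down collagens were then compared from fixed lists. Across the 9 lists, 119 distinct genes were measured; 22 were at least 1.5-fold lower (18.5%, against 10.8% of all measured genes) and 21 higher (17.6%, against 17.3%), with a median of 0.05. Of the lower members, 7 were fibril-associated matrix proteins and 6 transcription regulators, while 1 was a hydroxylase and 0 belonged to folding and export. Each list count below stands beside the shares over all measured genes, 17.3% higher and 10.8% lower. None was tested against them.

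Hydroxylases and glycosyltransferases, which modify the chains in the endoplasmic reticulum, had a median of 0.19, with 2 of 14 at least 1.5-fold higher and 1 lower. P4HA2 and P4HA1, catalytic subunits of prolyl 4-hydroxylase, read 4084 and 7678 (0.91) and 4322 and 6724 (0.64), while P4HA3 read 153 and 81.5 (-0.80). P4HA3 reached 100 only in control and had no other probe set at 100 or more. Folding and export genes had a median of 0.24, with 3 of 20 higher and 0 lower, against 17.3% and 10.8% of all measured genes. MIA2 (635 and 2340, 1.86) and MIA3 (543 and 1196, 1.12), which encode partner proteins that load procollagen into transport carriers at endoplasmic reticulum exit sites, were both higher on all their probe sets at 100 or more; MIA3 falls outside the naming rule and was chosen after its values were seen. CREB3L1, a transcription factor that acts on COL1A1, read 918 and 2091 (1.17). SERPINH1, the collagen chaperone HSP47, also chosen after its values were seen, read 3254 and 3780 (0.22).

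Propeptide processing genes had a median of 0.04 over 6 measured, with ADAMTS3, a procollagen N-proteinase, higher (206 and 534, 1.31). Cross-linking enzymes had a median of -0.11, with 2 of 8 lower. PXDN, peroxidasin, which forms the sulfilimine bonds of type IV collagen, read 9412 and 4388 (-1.10), and its other probe set differed by -1.12. LOXL4, a lysyl oxidase, read 506 and 221 (-1.14). LOX itself, chosen after its values were seen, read 8908 and 9617 (0.11).

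Collagen receptors went both ways, with 3 of 10 higher, 3 lower and a median of -0.01. ITGA2, the integrin α2 subunit that binds fibrillar collagen, read 447 and 4151 (3.17), and its other probe set differed by 3.28. ADGRG1, a receptor for type III collagen, read 257 and 2345 (3.11), but its other probe set at 100 or more differed by -0.01. ITGA11, another fibrillar collagen receptor subunit, read 3615 and 1658 (-1.12), with other probe sets at -1.45 and -0.71, and MRC2, which takes up collagen for breakdown, read 3373 and 1975 (-0.77).

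Fibril-associated matrix proteins had the lowest median of the lists, -0.37, with 7 of 15 lower and 3 higher. POSTN, periostin, read 3411 and 396 (-3.06), with its other probe sets at 100 or more between -2.91 and -0.33. DCN, decorin, a proteoglycan on collagen fibrils, read 798 and 224 (-1.76), and its 3 other probe sets lay between -2.28 and -1.48. THBS2, a matricellular thrombospondin, read 25.6 and 208 (2.43), and MATN2, a matrilin, 95.1 and 349 (1.72). Both reached 100 only with miR-129-3p and had no other probe set at 100 or more. The basement membrane partners had 3 of 13 higher and 0 lower, with a median of 0.06: LAMB3 read 166 and 485 (1.46) and LAMA4 2743 and 5913 (1.10), both laminin chains. The 2 nidogen genes and HSPG2, which encodes perlecan, stood within 1.5-fold, at -0.48 (NID1), 0.55 (NID2) and -0.57 (HSPG2), and were chosen after their values were seen.

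Collagen-degrading enzymes had a median of 0.31, with 2 of 10 higher and 3 lower. CTSL, a lysosomal cathepsin, read 759 and 3591 (2.22) and MMP16, a membrane metalloproteinase, 240 and 625 (1.32, with other probe sets from -0.17 to 1.24). FAP read 2717 and 781 (-1.78) and PREP, a prolyl peptidase, 773 and 500 (-0.61). Regulators of collagen transcription had a median of -0.01, with 6 of 23 lower and 4 higher. TGFB2, a TGF-beta ligand, read 5922 and 1400 (-2.07), with its other probe sets from -2.72 to -0.65, and CCN2, a matricellular protein induced by TGF-beta, read 9483 and 2961 (-1.67). TGFBR2, the type II receptor of that pathway, read 2644 and 10083 (1.92, and 1.93 on its other probe set), and KLF4, a transcription factor, 63.2 and 1025 (3.72).

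**Figure D5:**
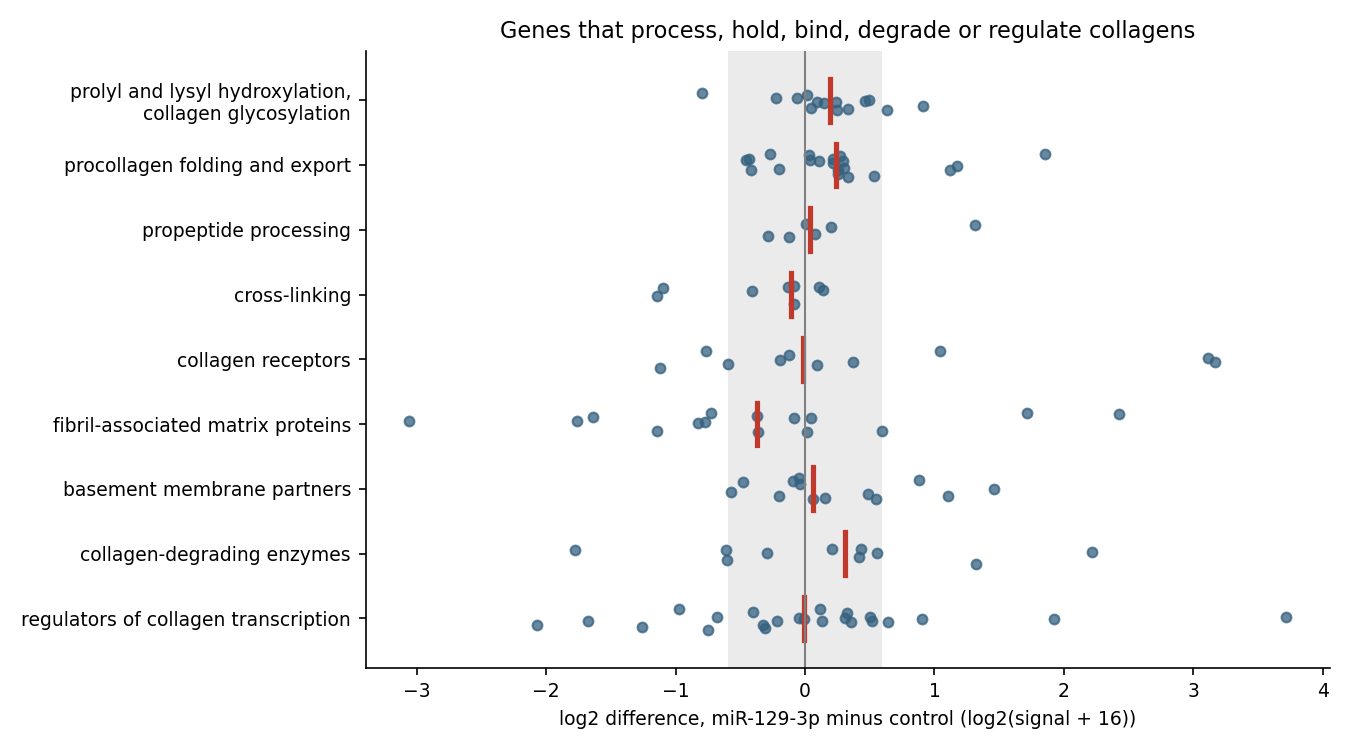
log2 difference (miR-129-3p minus control) of each measured member of the 9 fixed lists around collagen (points, spread vertically for display), with the list median as a red bar and the grey band within 1.5-fold. List medians run from -0.37 for fibril-associated matrix proteins to 0.31 for collagen-degrading enzymes.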

How the data were processed

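The deposited values are linear intensities of 54613 probe sets, 1 column for each array, between 1 and 20822. Per the submitters' processing notes MAS5 and RMA were used, with no version or role; the scaling between arrays, the background correction and any detection calls are not given in the sources used here. Compression or flooring of low signals would alter the differences of dim genes.

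Probe sets were named from the platform annotation: 1 symbol was given for 41091, none for 11721, and 1801 with several were not used. Of the differences computed here, each is log2(signal + 16) of miR-129-3p minus control, which understates those of dim genes. The members and lists were chosen with earlier results of these data known. The naming rule takes every measured collagen and the 2 highest and 2 lowest members of a list past 1.5-fold; genes named outside it were chosen after their values were seen. Coordinates come with the RefSeq sequences; the array files give none. No genes were tested, since each group has 1 array. Code was checked on simulated data. Alternatives were other constants, scalings, filters, probe set rules, a floor and a fold limit of 2. Tables were made with pandas 2.3.3 and numpy 2.4.6 in Python 3.11.15, trends with statsmodels 0.14.6 and plots with matplotlib 3.10.9.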

Additional observations from a re-analysis of the deposited data

How the results depend on the processing

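All 9 collagens called lower kept a difference of at least 1.5-fold lower under every alternative that gave them a value, and 4 of the 5 called higher did so; COL4A5 was at 0.48 with the mean of all probe sets. COL18A1, within 1.5-fold, was at -0.59 with the mean or the median of its probe sets. No called difference changed sign. The count at least 1.5-fold higher, 5, was 3 with a filter on a mean of 200. It was 1 without _x_at and _s_at probe sets, and 2 with a filter on both arrays. Fewer collagens enter each of these (18, 16 and 18 of the 23), and the calls of those left out could not change there. Of the called genes, the mean of 200 left out COL3A1 and COL4A6. The filter on both arrays left out COL3A1, COL4A6, COL8A2 and COL21A1. Without _x_at and _s_at probe sets, COL1A1, COL3A1, COL4A5, COL13A1 and COL21A1 had no value. The count at least 1.5-fold lower, 9, was 5 at a limit of 2-fold. The filter on both arrays and the median of probe sets at 100 or more were chosen after seeing the data. Other medians and counts moved by less than the limits used, 1 pooled SD between probe sets or 1.5 times. Dim signals set the size of COL21A1 (2.64 to 3.96), COL4A6 (0.84 to 3.24) and COL3A1 (0.84 to 1.77), through the added constant and the floor. COL8A2 ran from -2.71 to -1.97 with these and was at -1.50 with the mean or median of its probe sets. With the mean of all probe sets COL4A3 was at -1.63 and COL4A4 at -2.53, and COL4A3 was at -2.51 with the median of probe sets at 100 or more. No paired analysis was possible because each group has 1 array.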
